A study of Mus musculus with 18 samples.

Results

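The core histone genes of the replication-dependent clusters were followed through 3 stages of male germ cell development and 2 cytoplasmic fractions. They were taken as the genes of the GENCODE vM1 annotation (mouse genome build mm9) whose symbol begins with Hist1h, Hist2h, Hist3h or Hist4h and continues with 2a, 2b, 3 or 4, with the linker histones left out. This gave 64 of 37310 annotated genes, of which 20 encode H2A, 19 H2B, 12 H3 and 13 H4. The Hist1 cluster on chromosome 13 holds 50 of them, the Hist2 cluster on chromosome 3 holds 10, the Hist3 cluster on chromosome 11 holds 3, and Hist4h4 on chromosome 6 stands alone. Of the 64, 3 are annotated as pseudogenes.

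RNA was sequenced from ribonucleoprotein particles (RNPs), which hold mRNAs that are not being translated, and from polysomes, which hold mRNAs with several ribosomes. Both fractions came from pachytene spermatocytes (cells in meiotic prophase), round spermatids and elongating spermatids, with 3 libraries for each of the 6 combinations. All cells were wild type, from adult C57BL/6 mice. Cells of several testes were pooled and separated by sedimentation (the STA-PUT method) in buffers with cycloheximide, which arrests ribosomes on mRNA, and the purity judged from morphology was lowest for elongating spermatids. The labels do not say whether replicates came from separate animals, so p-values below measure only the spread between these libraries, which may be technical. In such preparations fewer cells of a type and less RNA per cell cannot be told apart.

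H3 and H4 form the tetramer, and H2A and H2B the dimers, around which nuclear DNA is wound. Genes of these clusters are transcribed mainly while DNA is replicated, and their mRNAs are known for ending not in a poly(A) tail but in a short stem-loop, which the stem-loop binding protein holds for cleavage, export and translation. Germ cells replicate their DNA for the last time before meiosis, and in spermatids most histones are replaced by transition proteins and then protamines. *Hist1h2aa* and *Hist1h2ba* encode the testis-specific forms of H2A and H2B, which enter chromatin during spermatogenesis.

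The stem-loop is the feature by which the ends of these mRNAs can be read, and it was looked for in the mm9 genome as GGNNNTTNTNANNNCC on the strand of the gene, with the outer bases on both sides able to pair. It lay within 150 bases after the stop codon in 57 of the 61 members with an annotated stop codon, starting 22 to 59 bases after it (median 31). The same search found it in 67 of 21930 protein-coding genes (0.306%), and the 10 that were not members were *H2afx*, 6 linker histone genes (*Hist1h1a*, *Hist1h1b*, *Hist1h1c*, *Hist1h1d*, *Hist1h1e* and *Hist1h1t*), *1700014N06Rik*, *Oscar* and *Ttc14*. The letters fell into 8 forms. In H2A, H2B and H3 genes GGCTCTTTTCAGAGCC was the most frequent, with 15, 12 and 7 members, and in H4 genes it was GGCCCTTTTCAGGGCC, with 8 of 13. The examples below are those of the members on which the results turn, with the stem-loop in capitals and its neighbouring bases in lower case, 5′ to 3′ as DNA on the strand of the gene. The stem-loop of *Hist3h2ba* is at chr11:58762851-58762866 (plus strand), that of *Hist3h2a* at chr11:58768674-58768689 (plus), that of *Hist4h4* at chr6:136752519-136752534 (minus), that of *Hist2h4* at chr3:96066862-96066877 (minus) and that of *Hist2h2bb* at chr3:96074094-96074109 (plus). In the Hist1 cluster, the stem-loop of *Hist1h3f* is at chr13:23636801-23636816 (plus), that of *Hist1h2ba* at chr13:24025599-24025614 (minus), that of *Hist1h2aa* at chr13:24026760-24026775 (plus) and that of *Hist1h2bp* at chr13:21879792-21879807 (plus).
Hist3h2ba: cccaaaGGCTCTTTTCAGAGCCacctt
Hist3h2a: accaaaGGCTCTTTTCAGAGCCaccca
Hist4h4: cacaaaGGCCCTTTTCAGGGCCcacaa
Hist2h4: cctaacGGCCCTTTTTAGGGCCaacca
Hist2h2bb: ccaaaaGGCTCTTTTCAGAGCCacttt
Hist1h3f: caaaacGGCTCTTTTAAGAGCCacctc
Hist1h2ba: cccaaaGGCTCTTTTAAGAGCCaccca
Hist1h2aa: caaaaaGGCTCTTTTCAGAGCCacctt
Hist1h2bp: cacaaaGGCTCTTTTCAGAGCCaccca

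The testis-specific genes carry the same kind of stem-loop as the others, and those of *Hist1h2ba* and *Hist1h3f*, which encode different histones, share all 16 letters. The stem-loops of *Hist4h4*, *Hist1h2ba* and *Hist1h2aa* lie past the annotated end of the gene, which for these members is close to the stop codon, and the others lie in an annotated exon with the exception of *Hist2h2bb*. In that gene the annotated stop codon is in a second exon, and the stem-loop lies in the intron between the exons. The 4 members with a stop codon but no stem-loop after it are *Hist2h2bb*, *Hist2h2be*, *Hist1h2an* and *Hist1h2al*.

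The level of a gene was taken as its counted FPKM (fragments per kilobase of transcript and per unit of sequencing depth), the sum over assembled transcripts that lay in its exons for at least 50% of their length or shared a splice junction with it. A length-weighted FPKM was used beside it. In it every transcript over the gene, on its strand or with no strand given, contributes its FPKM times the share of the gene's exon length that it covers. For both measures a transcript with no strand could match a gene on either strand. Such transcripts made up 46.1% to 86.5% of the single-exon transcripts of a library. A 0 says that no transcript over the gene was assembled and counted, and it is no measure of absence. The files used here hold no read counts and sequencing depth was not analysed here, so no counting error is given. The ratio of coverage to FPKM, which grows with depth, was between 1.20 and 2.26.

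Libraries of the same group did not all resemble each other. The round libraries numbered 2 correlated with the others of their group at r = 0.481 to 0.619 across genes, against 0.841 (RNP) and 0.821 (polysome) for replicates 1 and 3. The summed FPKM of Sertoli cell markers (13 of 14 genes in the annotation) was 1014 and 2278 in the round RNP and polysome libraries numbered 2, where all 13 were above 0, and 35.0 to 139 in the other 4 round libraries. It was also high in pachytene RNP replicate 2 (1293) and in pachytene polysome replicates 2 (931) and 3 (1239), and 17.4 to 30.6 in elongating libraries. Markers of round spermatids summed to 141 and 246 in the round libraries numbered 2 and to 659 to 2092 in the other round libraries. Those of elongating spermatids summed to 81.7 and 128 in the round libraries numbered 2 and to 1351 to 4571 in the others. These 2 libraries thus went against their label in part. Markers of spermatogonia, germ cells that still divide, summed to 463 and 894 in these 2 libraries and to 256.1 to 418 in the other round ones, and among pachytene libraries they were highest in polysome replicates 2 (536) and 3 (478). Markers of pachytene spermatocytes were highest in pachytene polysomes (1574 to 2780) but only 117 to 574 in pachytene RNPs, and those of elongating spermatids were highest in the elongating libraries (6000 to 31841). Round spermatid markers did not follow the labels, with their highest sum in elongating polysomes (1039 to 2658).

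Most members were never assembled. A counted FPKM above 0 was found for 23 members in at least 1 of the 18 libraries, and the other 41 were at 0 in all 18, with 7 to 13 members above 0 in any 1 library. The clusters differed, with 15 of 50 Hist1 members, 4 of 10 Hist2 members, all 3 Hist3 members and the single Hist4 member above 0 somewhere. By histone type the counts were 5 of 20 for H2A, 10 of 19 for H2B, 4 of 12 for H3 and 4 of 13 for H4. Only 7 members were above 0 in 12 or more libraries, namely *Hist3h2ba*, *Hist4h4*, *Hist2h4*, *Hist2h2be*, *Hist3h2a*, *Hist2h2bb* and *Hist1h2aa*, and only *Hist3h2ba* and *Hist4h4* in all 18. With length-weighted FPKM, 26 members were above 0 in some library.

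Whether a member was assembled went with how much of its sequence occurs at a single place in the genome. The share of 50-base exon windows found at 1 place in mm9 had a median of 47.7% over the 64 members and ran from 0% to 100%. It was 33.0% (median, highest 88.4%) in the 41 members with no counted FPKM, 54.2% in the 16 counted in 1 to 11 libraries, and 99.0% (76.4% to 100%) in the 7 counted in 12 or more. The 6 members at 0%, *Hist1h2ao*, *Hist1h2ap*, *Hist2h2aa1*, *Hist2h2aa2*, *Hist1h2bq* and *Hist1h2br*, have no 50-base window of their own, and none was counted. Above 0% and up to 50%, 6 of 27 were counted in any library, between 50% and 75% 8 of 20, and above 75% 9 of 11. How reads with several matches were placed is not given in the sources used here, so levels of members with few windows of their own are uncertain, and the part of such reads in the zeros was not tested.

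**Figure D1:**
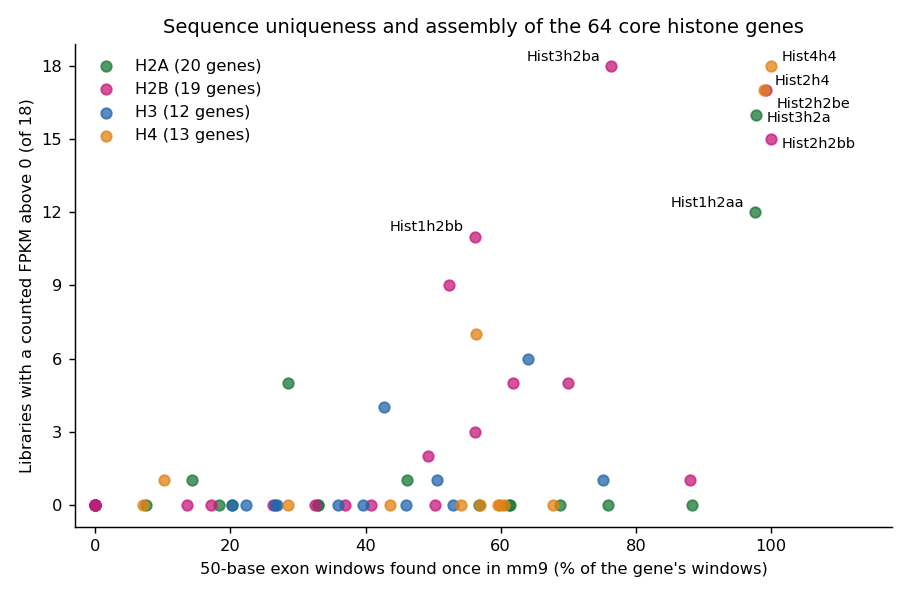
Each point is 1 of the 64 core histone genes, coloured by histone type, with the share of its 50-base exon windows found at 1 place in mm9 on the horizontal axis (percent) and the number of the 18 libraries with a counted FPKM above 0 on the vertical axis. All 7 genes counted in 12 or more libraries lie at 76.4% or higher, and the 6 genes at 0% were counted in none.

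The assembled 3′ ends lay at the stem-loop for just over 50% of the transcripts. Of 202 counted transcripts, from 23 genes, 165 came from the 20 genes with a stem-loop. Of these 93 (56.4%) ended within 20 bases of its first base, 70 ended further downstream and 2 upstream. The hexamer AATAAA, the usual signal for polyadenylation, stood in the last 50 bases of none of the 93 and of 13 of the 70. In members with the stem-loop after the stop codon, the first AATAAA after that codon lay 126 bases or more away. Ends at these stem-loops could not hold it after the stop codon, so the 0 is no evidence of how these mRNAs end. Among all spliced transcripts of a library 18.1% to 26.6% had AATAAA in the last 50 bases. Ends at the stem-loop made up 15 of 24 transcripts in pachytene RNPs, 14 of 29 in pachytene polysomes, 17 of 33 in round RNPs, 22 of 30 in round polysomes, 12 of 25 in elongating RNPs and 13 of 24 in elongating polysomes.

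Members fell into those with ends at the stem-loop, those with ends past it and those with both. *Hist3h2ba* had 1 transcript in each library, and 15 of the 18 ended within 20 bases of the first stem-loop base (range 0 to 50 bases, median 5). *Hist4h4* ended there in 12 of 18 libraries (4 to 106 bases, median 5.5) and *Hist2h4* in 17 of 17 (from 19 bases before it to 3 after). In *Hist2h2bb* 15 of 18 transcripts ended within 20 bases of the stem-loop inside the annotated intron (-14 to 101 bases), and all 18 were unspliced.

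The testis-specific H2B gene *Hist1h2ba* differed from these, since none of its 18 transcripts ended within 20 bases of its stem-loop. They reached 71 to 2416 bases beyond it (median 187), and none had AATAAA in the last 50 bases. The genome holds no AATAAA within 1000 bases after the stop codon of this gene. *Hist1h2aa*, the testis-specific H2A gene on the opposite strand beside it, had both kinds, with 8 of 21 transcripts within 20 bases and the others up to 630 bases downstream. The H2B gene *Hist1h2bp* has a second exon after its stem-loop, and all 11 of its transcripts ended 1287 bases or more past the stem-loop, 10 of them with AATAAA. *Hist3h2a* ended 197 to 4676 bases past its stem-loop in its 25 counted transcripts, of which 11 were spliced, and *Hist2h2be*, which has no stem-loop after the stop codon, had AATAAA near the end of 15 of its 31 transcripts.

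**Figure D2:**
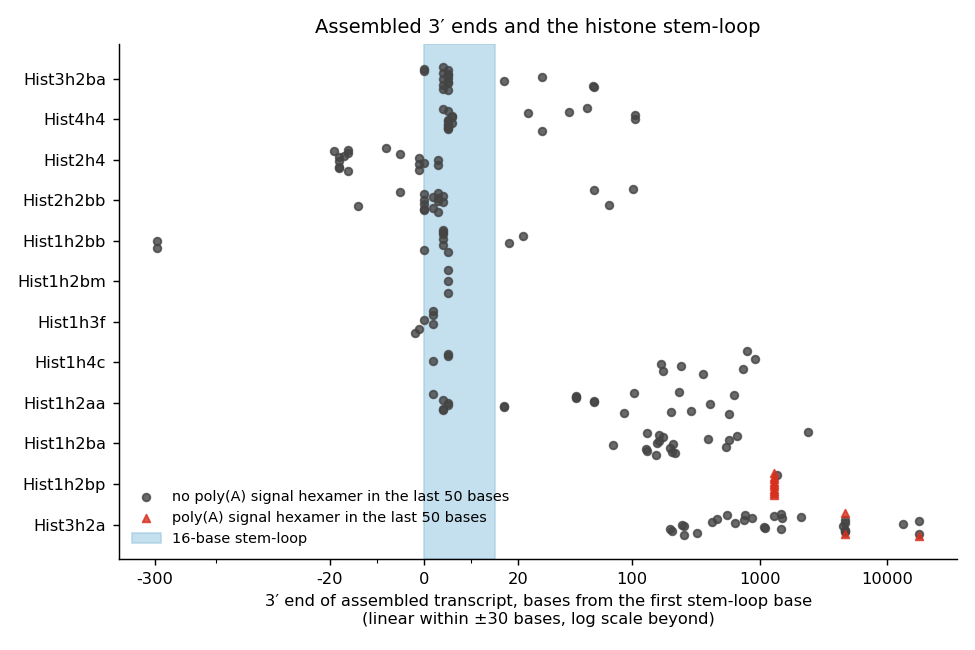
For 12 core histone genes, each symbol is 1 assembled transcript of 1 library, placed by the distance of its 3′ end from the first stem-loop base (bases, linear within 30 bases of it and logarithmic beyond), with counted and uncounted transcripts over the gene shown. Red triangles have the polyadenylation hexamer in the last 50 bases and the blue band is the 16-base stem-loop; Hist3h2ba, Hist4h4, Hist2h4 and Hist2h2bb gather at the band, and all ends of Hist1h2ba lie at 71 bases or more.

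The FPKM of several members rested on very short transcripts. Of the 202 counted transcripts 20 were under 200 nucleotides long, and they held 88.9% of the FPKM summed over all members and libraries. No such transcript was counted in pachytene RNPs or in either fraction of elongating spermatids, whereas in the 3 round polysome libraries they held 97.6%, 94.7% and 88.1% of the summed member FPKM. The same length class held 84.4% to 95.8% of the FPKM of all transcripts in a library, while only 5.02% to 8.90% of transcripts belong to it. A piece of 66 nucleotides in *Hist1h2bb*, an H2B gene, was listed at 54730.3 FPKM in round polysome replicate 2 and 1 of 71 nucleotides at 29986 FPKM in round RNP replicate 2, while the 9 other libraries with this gene gave 61.8 to 753 FPKM from transcripts of 383 to 625 nucleotides. *Hist1h2bc* (16907 FPKM, pachytene polysome replicate 3), *Hist1h2ab* (6658 FPKM, pachytene polysome replicate 2) and *Hist1h2be* (6547 FPKM, round RNP replicate 2) each reached these values in 1 library, from a transcript of 60, 103 and 133 nucleotides.

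*Hist1h3f*, an H3 gene at chr13:23635921-23636924 (plus strand, 1 exon), was listed only from such pieces. Its counted FPKM was 22919, 23800 and 19549 in the 3 round polysome libraries, 18076 in round RNP replicate 2, and 2894 and 667 in pachytene polysome replicates 2 and 3. It was at 0 in the other 12 libraries, including all elongating libraries. The 6 pieces were 55 to 152 nucleotides long and ended from 2 bases before to 2 bases after the first base of its stem-loop. With transcripts under 200 nucleotides left out, this gene is at 0 everywhere.

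*Hist1h4c*, *Hist1h4m*, *Hist1h3d* and *Hist2h3c1*, which encode H4 or H3, were above 0 in 1 to 7 libraries. *Hist1h4c* was listed at 503 and 294 FPKM in pachytene RNP replicates 2 and 3, 1759 in pachytene polysome replicate 3, 121 and 208 in round RNP replicates 1 and 3, 86.2 in elongating RNP replicate 3 and 128 in elongating polysome replicate 3, with no group above 0 throughout when counted. Transcripts over it in replicate 1 of pachytene RNPs (45.1 FPKM), pachytene polysomes (69.9) and round polysomes (63.2) were not counted. With length-weighted FPKM it was above 0 in 10 libraries. *Hist1h4m* was above 0 in elongating polysome replicate 2 alone (469 FPKM) and *Hist1h3d* in round polysome replicate 3 alone (470.5 FPKM, a piece of 77 nucleotides). *Hist2h3c1* was at 4.19 and 2.10 FPKM in pachytene RNP replicates 1 and 2, 20.01 in pachytene polysome replicate 3, 2.31 in round polysome replicate 1 and 0 in the other 14 libraries. Its 5 transcripts lay wholly past its stop codon and stem-loop, ending 854 to 1179 bases after the first stem-loop base.

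**Figure D3:**
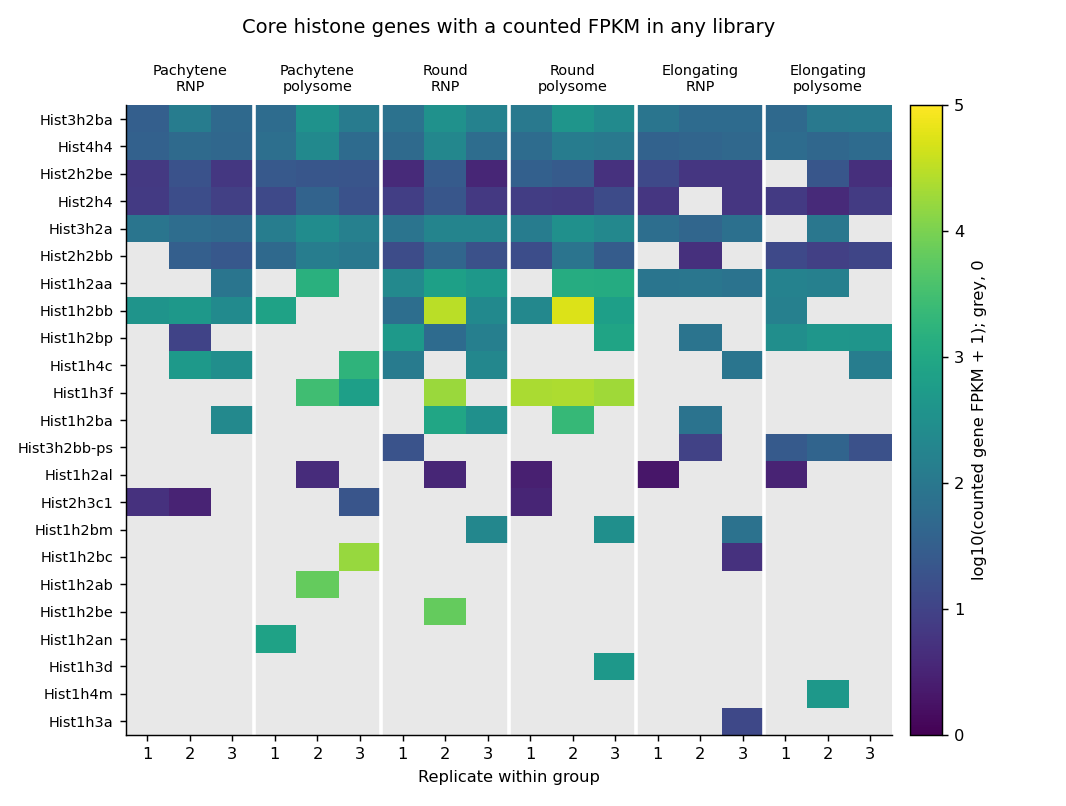
Heat map of the 23 core histone genes with a counted FPKM above 0 in any library, as log10(FPKM + 1) for each library (columns, 3 replicates in each of 6 groups), with grey for 0. The upper 6 genes are above 0 in most libraries, and the brightest cells, Hist1h2bb in the round libraries numbered 2 and Hist1h3f in round polysomes, come from transcripts under 200 nucleotides.

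*Hist3h2ba*, an H2B gene with a single exon at chr11:58762413-58763032 (plus strand), was counted in all 18 libraries. Its FPKM was 32.3, 125 and 50.4 in pachytene RNPs, 56.6, 352 and 117 in pachytene polysomes, 76.3, 335 and 164 in round RNPs, 103, 411 and 251 in round polysomes, 87.7, 54.8 and 55.3 in elongating RNPs and 50.3, 106 and 113 in elongating polysomes. The highest values were those of the libraries numbered 2 in pachytene polysomes and both round fractions, where the markers of Sertoli cells and of spermatogonia were also high, and the part of other cells in the level was not tested. The lowest mean was 65.9 ± 18.8 (SD, n = 3), in elongating RNPs, and the fractions overlapped in all 3 cell types. The difference between fractions in pachytene spermatocytes (log2 difference 1.16, SE 0.73, limma adjusted p = 0.301) and that between elongating and round polysomes (-1.37, SE 0.73, limma adjusted p = 0.367) did not pass.

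*Hist4h4*, an H4 gene with a single exon at chr6:136752589-136752900 (minus strand), had 35.4, 53.2 and 45.02 FPKM in pachytene RNPs, 65.8, 231 and 56.2 in pachytene polysomes, 53.2, 208 and 60.3 in round RNPs, 57.4, 123 and 104 in round polysomes, 35.9, 42.6 and 49.0 in elongating RNPs and 58.4, 46.1 and 55.7 in elongating polysomes. In pachytene spermatocytes all 3 polysome values lay above all 3 RNP values (log2 difference 1.10, SE 0.57, limma adjusted p = 0.215), and this did not pass the test. The median log2 difference over all genes was 1.01 there. With median-ratio scaling, which sets libraries to a common level by genes found in all of them, the fractions overlapped. *Hist4h4* was then at 40.5, 70.3 and 93.7 in pachytene RNPs and at 43.4, 148 and 36.3 in pachytene polysomes. *Hist2h4*, an H4 gene with a single exon at chr3:96065627-96067234 (minus strand), was lower, at 6.18, 14.4 and 7.87 FPKM in pachytene RNPs, 11.6, 38.5 and 16.9 in pachytene polysomes, 7.52, 20.9 and 5.64 in round RNPs, 7.18, 6.30 and 12.8 in round polysomes, 5.20, 0 and 5.10 in elongating RNPs and 6.23, 3.03 and 6.40 in elongating polysomes. The order of *Hist4h4* above *Hist2h4* held in every library, also for length-weighted FPKM.

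*Hist2h2bb*, an H2B gene at chr3:96073644-96082924 (plus strand, 2 exons), had 1 transcript over its 5′ exon in each library. The FPKM of that transcript was 16.1, 32.3 and 22.7 in pachytene RNPs and 49.8, 129 and 102 in pachytene polysomes, 13.6, 43.1 and 16.5 in round RNPs and 14.3, 81.1 and 27.9 in round polysomes, and 5.82, 3.89 and 6.67 in elongating RNPs and 11.6, 7.97 and 10.1 in elongating polysomes. In these unscaled values the fractions did not overlap in pachytene spermatocytes and elongating spermatids and overlapped in round spermatids. Elongating RNPs lay below all other groups. The median log2 difference between fractions over all genes, from counted FPKM, was 1.01 for pachytene spermatocytes and 0.71 for elongating spermatids. Whether these separations and the low place of elongating RNPs hold after scaling between libraries was not tested. In 3 RNP libraries (pachytene replicate 1, elongating replicates 1 and 3) under 50% of the transcript lay in the annotated exon, so its counted FPKM there is 0.

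Of the 64 members, 16 passed the filter (FPKM of 1 or more in no fewer than 3 libraries), out of 14693 genes tested on log2(FPKM + 1), a scale that understates the change of genes with low FPKM. Between the fractions no member was called at an adjusted p under 0.05 with counted FPKM. In pachytene spermatocytes 6.13% of all genes were called (limma) and 0 of the 16 members, with 2 at an unadjusted p under 0.05. The median log2 difference was 0.88 over the 16 and 1.01 over all genes. In round spermatids 0.327% of genes and 0 members were called (1 at an unadjusted p under 0.05, medians 0.12 and 0.64), and in elongating spermatids 1.53% and 0 (4 at an unadjusted p under 0.05, medians 0.20 and 0.71). The member with the smallest adjusted p in pachytene spermatocytes was *Hist2h2bb*, at 93.4 ± 40.1 FPKM in polysomes and 18.4 ± 16.6 in RNPs (SD, n = 3 each), a log2 difference of 3.25 with SE 1.05 and a limma adjusted p of 0.0691. The 0 of pachytene RNP replicate 1, whose transcript of 16.1 FPKM was not counted, enters this value, and without that library the log2 difference was 1.64 (limma adjusted p = 0.176).

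With length-weighted FPKM, 3 of 16 members were higher in polysomes of pachytene spermatocytes, where 26.2% of all genes were called and the median log2 difference was 0.96 over the 16 and 1.02 over all genes. They were *Hist2h2bb* with 14.6 ± 7.31 against 3.73 ± 1.51 FPKM (log2 difference 1.63, SE 0.54, limma adjusted p = 0.0376), *Hist3h2a* with 104 ± 62.8 against 34.01 ± 6.196 (1.44, SE 0.49, limma adjusted p = 0.0426) and *Hist2h2be* with 21.6 ± 2.32 against 3.73 ± 1.65 (2.30, SE 0.81, limma adjusted p = 0.0478; SD, n = 3 for each mean). For *Hist3h2a*, an H2A gene at chr11:58768187-58770176 (plus strand, 1 exon), the length-weighted values were 72.5, 176 and 63.1 in polysomes and 36.1, 38.9 and 27.0 in RNPs, with no overlap. For *Hist2h2be*, an H2B gene at chr3:96025044-96027661 (plus strand, 1 exon), they were 24.2, 21.0 and 19.6 against 5.63, 2.85 and 2.71, also with no overlap. With all transcripts under 200 nucleotides left out of the counted FPKM, 7.64% of genes and none of the 15 members tested were called in pachytene spermatocytes (limma, 1 at an unadjusted p under 0.05). In round spermatids no member was called by either alternative (limma, 0.246% of genes and 1 member at an unadjusted p under 0.05 when length-weighted, 0.322% and 0 without the short transcripts).

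In elongating spermatids the member with the largest length-weighted difference between fractions was *Hist1h2bp*, an H2B gene at chr13:21879330-21881082 (plus strand, 2 exons). Its length-weighted FPKM was 237, 331 and 320 in elongating polysomes and 0, 25.6 and 0 in elongating RNPs (log2 difference 6.62, SE 1.67, limma adjusted p = 0.0431, where 3.28% of all genes were called). In counted FPKM the values were 298, 418 and 402 against 0, 83.7 and 0, and the difference of 6.39 (SE 2.07) did not pass (limma adjusted p = 0.110). In all 3 elongating polysome libraries the gene was assembled as a like spliced transcript of 559 to 563 nucleotides, which joined upstream exon sequence to the downstream exon. It is shorter than the 706 exon bases of the gene, and whether it keeps the stem-loop was not tested. In round RNPs it was listed at 499, 55.2 and 145 FPKM and in round polysomes at 0, 0 and 829, but there all 4 transcripts were single pieces of 153 to 228 nucleotides within the downstream exon. The single elongating RNP transcript ran over 3 exons and joined *Hist1h2bm* to *Hist1h2bp*, 2 genes with like sequences, so its assignment is uncertain. *Hist1h2bp* has 52.3% of its windows at 1 place in the genome. Without transcripts under 200 nucleotides, 1.52% of genes and 0 members were called here (limma, 4 at an unadjusted p under 0.05).

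Between cell types the RNP fraction gave no called member. From pachytene to round spermatids 0% of genes and 0 members were called (limma, 2 members at an unadjusted p under 0.05), with a median log2 difference of 1.19 over the 16 and 0.22 over all genes. From round to elongating spermatids 0.0817% of genes and 0 members were called (4 at an unadjusted p under 0.05), with 15 of the 16 not above 0 and a median of -1.50 beside -0.19 over all genes. In the polysome fraction from pachytene to round spermatids 0.157% of genes and 0 members were called (2 at an unadjusted p under 0.05, medians 0.12 and -0.07). Changes of the difference between fractions from 1 stage to the next called 0.00681% of genes each and no member (limma, 0 members at an unadjusted p under 0.05 from pachytene to round and 4 from round to elongating). The length-weighted FPKM gave no called member in these comparisons either, with 0.00683% of genes called in RNPs from pachytene to round (1 member at an unadjusted p under 0.05), 0.082% in RNPs from round to elongating (4), 0.629% in polysomes from pachytene to round (3), and 0.00683% (0) and 0.0137% (3) for the changes. Without transcripts under 200 nucleotides the shares for the RNP steps were 0% (1) and 0.0754% (2), that for polysomes from pachytene to round was 0.26% (0), and both changes had 0% (0 and 3), again with limma and no member called.

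From round to elongating spermatids the polysome fraction called 3 of the 16 members, with 0.558% of all genes called. *Hist1h3f* was at 19549 to 23800 FPKM in the 3 round polysome libraries and listed at 0 in all 3 elongating ones (limma adjusted p = 0.0443), with the round values from pieces under 200 nucleotides as described above. *Hist3h2bb-ps*, annotated as an H2B pseudogene between *Hist3h2ba* and *Hist3h2a*, was listed at 0 in the 3 round polysome libraries and at 24.8, 40.6 and 16.1 FPKM in the elongating ones (limma adjusted p = 0.0443). It passed the filter only through the elongating polysome libraries, the group in which it is high, so that group decided its call. It was above 0 in only 2 other libraries, round RNP replicate 1 (17.6) and elongating RNP replicate 2 (8.76), and it was higher in elongating polysomes than in elongating RNPs by 3.63 (SE 0.97), which did not pass (limma adjusted p = 0.0670). *Hist3h2a* had 124, 316 and 215 FPKM in round polysomes and 0, 96.6 and 0 in elongating ones (log2 difference -5.47, SE 1.18, limma adjusted p = 0.0485). In both libraries at 0 a transcript of 8 exons (77.9 and 88.9 FPKM) ran over *Hist3h2a* into *Trim17*, the next gene, and was counted there. With length-weighted FPKM *Hist3h2a* was at 46.0, 136 and 96.0 in round and 32.6, 36.0 and 37.2 in elongating polysomes, groups that do not overlap, and the difference of -1.24 (SE 0.49) did not pass (limma adjusted p = 0.233). On that scale 0.745% of genes were called and 1 member, *Hist1h3f* (limma adjusted p = 0.0406).

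These 3 calls changed with the libraries and transcripts used. Without both round libraries numbered 2, 1 of 16 members was called (*Hist1h3f*), and with transcripts under 200 nucleotides left out, an alternative chosen after seeing the data, *Hist3h2bb-ps* (limma adjusted p = 0.0395), *Hist3h2a* (0.0415) and *Hist1h2bp* (0.0380, listed at 0 in the 3 round polysome libraries) were called with 0.658% of all genes. None of the 3 was called without any 1 of the pachytene RNP libraries, pachytene polysome replicate 3, round RNP replicate 3, round polysome replicates 2 or 3, or elongating polysome replicates 1 or 3. A single call was left without pachytene polysome replicate 1 or 2 (*Hist1h3f*), without any 1 of the elongating RNP libraries (*Hist3h2bb-ps*) and without elongating polysome replicate 2 (*Hist3h2a*).

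The testis-specific genes are shown by length-weighted FPKM, since their transcripts run past the short annotated exons. *Hist1h2ba*, testis-specific H2B (chr13:24025637-24026025, minus strand), was above 0 in all 18 libraries, at 373, 448 and 227 FPKM in pachytene RNPs, 442, 1795 and 728 in pachytene polysomes, 47.2, 924 and 318 in round RNPs, 169, 2194 and 315 in round polysomes, 61.7, 80.1 and 65.1 in elongating RNPs and 127, 213 and 208 in elongating polysomes. In elongating spermatids the fractions did not overlap, where the median log2 difference over all genes was 0.70 on this scale. The values are not scaled between libraries, and whether the fractions stay apart after scaling was not tested. Both elongating fractions lay below every pachytene library. The libraries numbered 2 were the highest of their group in pachytene polysomes and both round fractions. No comparison of this gene passed (smallest limma adjusted p 0.292).

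*Hist1h2aa*, testis-specific H2A (chr13:24026331-24026720, plus strand), had a length-weighted FPKM of 37.1, 58.5 and 86.0 in pachytene RNPs, 90.3, 1188 and 0 in pachytene polysomes, 197, 780 and 429 in round RNPs, 85.4, 1112 and 735 in round polysomes, 87.3, 85.2 and 68.5 in elongating RNPs and 140, 149 and 87.3 in elongating polysomes. In pachytene polysome replicate 2, round RNP replicate 2 and round polysome replicate 3, part of the value came from transcripts of 2 exons. These joined *Hist1h2ab*, another H2A gene, to *Hist1h2aa*, so their assignment is uncertain. In pachytene RNP replicates 1 and 2 the value came from transcripts of 1704 and 1382 nucleotides that also ran over the site of *Hist1h2ba* on the opposite strand. In pachytene polysome replicate 3, where *Hist1h2aa* was at 0, a *Hist1h2ba* transcript ran over part of *Hist1h2aa*. How far the levels of these neighbours depend on each other was not tested. In RNPs all 3 round libraries lay above all 6 pachytene and elongating ones. The log2 differences of round from pachytene RNPs (2.80, SE 1.68) and of elongating from round RNPs (-2.32, SE 1.68) did not pass (limma adjusted p = 1 and 0.591). In pachytene RNPs the lowest *Hist1h2ba* value (227) lay above the highest of *Hist1h2aa* (86.0).

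**Figure D4:**
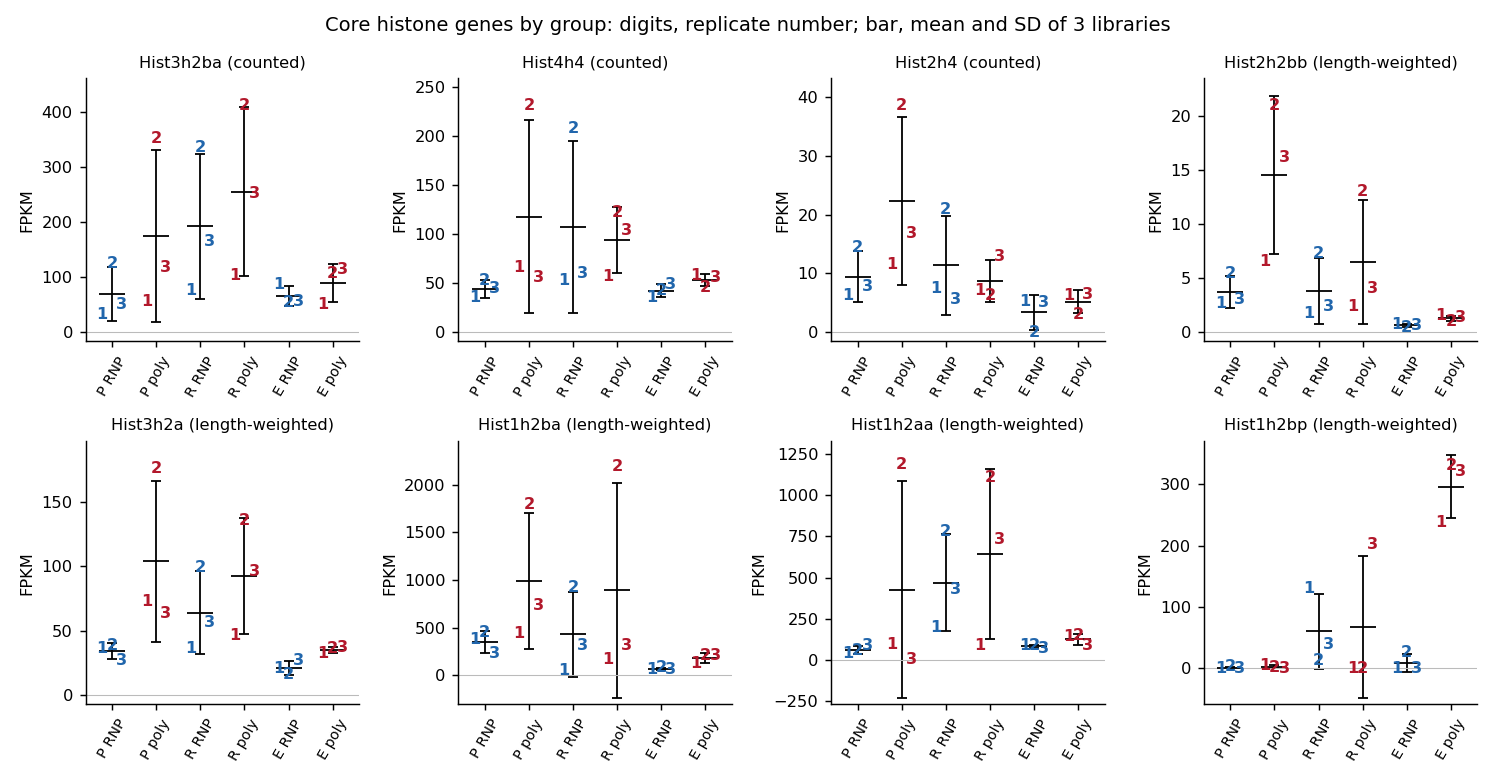
FPKM of 8 core histone genes in the 6 groups (P, pachytene spermatocytes; R, round spermatids; E, elongating spermatids; poly, polysome), counted or length-weighted as each title says, with each library drawn as its replicate number (blue for RNP, red for polysome) and bars for mean and SD (n = 3). Replicate 2 is the highest of its group in pachytene polysomes and in both round fractions for all genes shown but Hist2h4 and Hist1h2bp, and Hist1h2bp is highest in elongating polysomes at 237 to 331.

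Summed by histone type, H2B genes held the largest share of member FPKM in most libraries. The length-weighted sum for H2B was 739 ± 248 in pachytene RNPs, 1666 ± 459 in pachytene polysomes, 2414 ± 3192 in round RNPs, 4061 ± 5354 in round polysomes, 169 ± 47.2 in elongating RNPs and 618 ± 52.5 in elongating polysomes (SD, n = 3 each). The round means rested on replicate 2, with 299, 6086 and 856 in the 3 RNP and 462, 10214 and 1508 in the 3 polysome libraries, and in replicates 1 and 3 the round RNP sums lay on both sides of the pachytene RNP mean and the round polysome sums below the pachytene polysome mean. The counted means were 13225 and 19970 in round RNPs and polysomes, and 855 and 1446 with transcripts under 200 nucleotides left out. In elongating polysomes H2B made up 52.0% to 70.6% of the member sum, H2A 13.4% to 21.9%, H4 7.48% to 33.6% and H3 0%. H2A sums were 94.6 ± 20.1 in pachytene RNPs, 1089 ± 1622 in pachytene polysomes, 552 ± 358 in round RNPs, 776 ± 554 in round polysomes, 102 ± 6.61 in elongating RNPs and 161 ± 32.1 in elongating polysomes. In pachytene polysomes the H2A mean came mostly from replicate 2, at 2960, with 244.5 and 63.1 in replicates 1 and 3. For H4 the range of the group means was 68.3 ± 52.7 (elongating RNPs) to 586 ± 691 (pachytene polysomes).

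H3 stood apart from the other types. Its counted sum was 22921, 23800 and 20019 in round polysomes and 18076 in round RNP replicate 2, of which *Hist1h3f* pieces made nearly all, 2894 and 687 in pachytene polysome replicates 2 and 3, and 11.2 or lower in the other 12 libraries, with 0 in 9 of them. With transcripts under 200 nucleotides left out, the mean H3 sum of round polysomes was 0.77. H3 members had a median of 41.2% of windows at 1 place in the genome and none was above 75.2%, against medians of 32.9% for H2A, 50.3% for H2B and 57.0% for H4, in each of which at least 1 member reached 97.8% or more. The length-weighted sums of H2A, of H2B and of all members did not overlap between the fractions of elongating spermatids, with 264.6 to 409.8 FPKM in RNPs and 795 to 1279 in polysomes for all members. The median log2 difference over all genes was 0.70 on this scale. With median-ratio scaling of the counted FPKM the fractions overlapped for H2B (141 to 407 in RNPs, 394 to 469 in polysomes) and for all members (416 to 710 and 565 to 1075). For H2A the direction turned, with means of 144 in RNPs and 139 in polysomes when counted, and 210.1 and 107 with median-ratio scaling. The counted polysome values were 167, 249 and 0. They leave out transcripts over *Hist3h2a* in replicates 1 and 3 (77.9 and 88.9 FPKM) and over *Hist1h2aa* in replicate 3 (105 FPKM), which the counting rule did not assign to these genes.

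**Figure D5:**
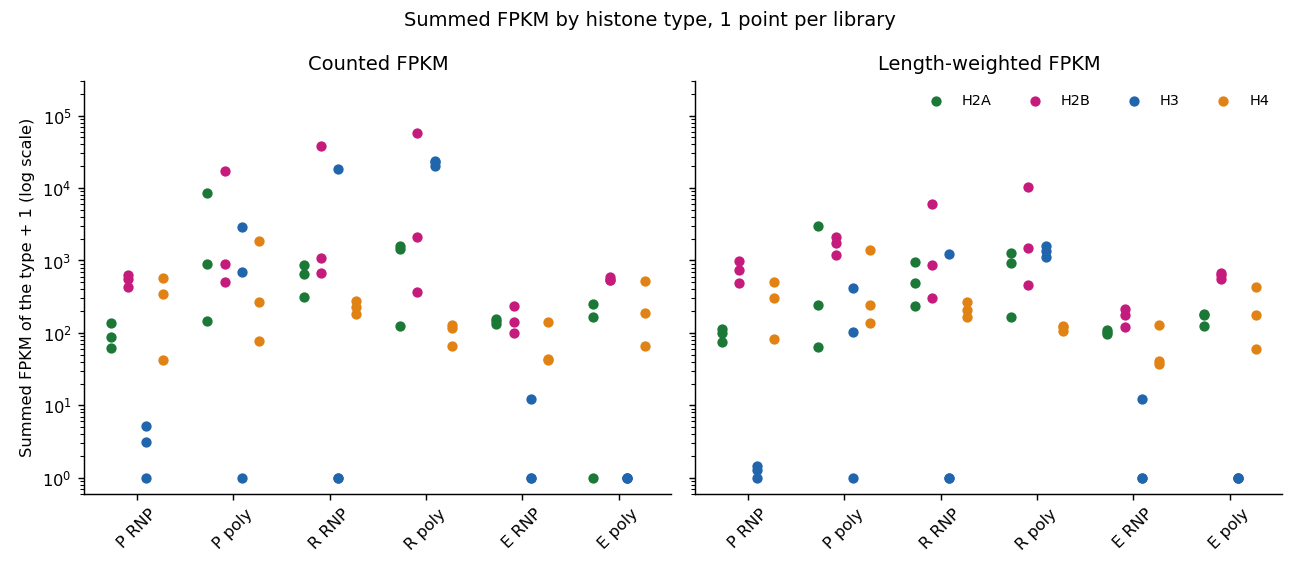
Summed FPKM + 1 (log scale) of the H2A, H2B, H3 and H4 members in each of the 18 libraries, by group (P, pachytene spermatocytes; R, round spermatids; E, elongating spermatids; poly, polysome), with counted FPKM on the left and length-weighted FPKM on the right. H3 lies at 1 (a sum of 0) in 9 of the 18 libraries and at 20019 to 23800 in the 3 round polysome libraries when counted.

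The machinery that makes and uses these mRNAs was read from 4 lists, chosen with earlier results of these data known. Of 22 genes of histone mRNA 3′ processing and turnover, 3 were higher in polysomes than in RNPs of pachytene spermatocytes and none lower, where 6.13% of all genes were called. They were *Slbp*, the stem-loop binding protein, at 114 ± 38.3 against 29.6 ± 11.9 FPKM (log2 difference 1.95, limma adjusted p = 0.0403), *Mif4gd*, its partner in translation (1.89, limma adjusted p = 0.0389), and *Ncbp2*, a subunit of the cap-binding complex (1.89, limma adjusted p = 0.0187). *Slbp* had 38.5, 34.1 and 16.1 FPKM in the RNP and 79.3, 107 and 155 in the polysome libraries, without overlap. In elongating spermatids only *Ncbp2* was called (1.88, limma adjusted p = 0.0245), with 1.53% of all genes. The list median in pachytene spermatocytes was 0.93, beside 1.01 for all genes. Of the genes highest in FPKM, *Ncbp1*, the other subunit of the cap-binding complex (log2 difference 1.42, limma adjusted p = 0.358), and *Sympk*, a scaffold of the cleavage machinery (0.80, limma adjusted p = 0.341), did not pass there.

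Of 10 replacement histone variants encoded outside the clusters, 3 were higher in pachytene polysomes (6.13% of all genes called). Most such variants are made without DNA replication, but *H2afx* carries the stem-loop of the cluster genes. The 3 were *H3f3a* (505 ± 133 against 145 ± 86.6 FPKM, log2 difference 1.91, limma adjusted p = 0.0476), *H3f3b* (1.66, limma adjusted p = 0.0419), both encoding H3.3, and *H2afy*, encoding macroH2A (2.31, limma adjusted p = 0.0302). Unlike the H3 members of the clusters, *H3f3a* was above 0 in every library, at 91.3 to 639 FPKM. *H2afb1*, a testis variant of H2A, was at 682, 205 and 365 FPKM in elongating RNPs and 1046, 736 and 795 in elongating polysomes, and at 0 to 170 in the other 12 libraries, with 0 in 4 of the 12. Those 4 were the pachytene and round libraries numbered 2. *H2afz*, encoding H2A.Z, did not pass between the fractions of pachytene spermatocytes (1.30, limma adjusted p = 0.221), and the list median there was 0.82, beside 1.01 for all genes.

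Of 21 histone chaperones and import factors, *Daxx* (1.83, limma adjusted p = 0.0317) and *Asf1b* (2.15, limma adjusted p = 0.0304), chaperones of H3 and H4, were higher in pachytene polysomes, with 6.13% of all genes called there and a list median of 1.20 beside 1.01 for all genes. The chaperones *Nasp* (1.47, limma adjusted p = 0.127), *Npm1* (0.53, limma adjusted p = 0.517) and *Nap1l4* (1.83, limma adjusted p = 0.112) and the import factor *Ipo4* (0.39, limma adjusted p = 0.679) did not pass. None of 21 genes of DNA replication was called in any comparison with limma (0 to 5 of them had an unadjusted p under 0.05). In pachytene spermatocytes the differences were 1.48 for *Pcna*, 1.01 for *Mcm7*, 1.40 for *Rrm1* and 2.04 for *Gins1* (limma adjusted p = 0.142, 0.222, 0.169 and 0.0629), and from round to elongating polysomes 3 of the 21 lay above 0, with a median of -0.97 beside -0.15 for all genes. No gene of the 4 lists was called lower in any comparison, and in the RNP, cell type and remaining fraction comparisons none was called higher. *Pcna*, the sliding clamp of DNA replication, was at 264 FPKM in round polysome replicate 2 and at 68.5 and 88.6 in replicates 1 and 3. Among round polysomes it was thus highest in the same library as *Hist3h2ba* and *Hist1h2ba*. It is 1 of the 21 genes of the list, and the others were not compared by library here.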

How the data were processed

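RNA from RNP and polysome fractions of 3 germ cell types was sequenced in 18 libraries, grouped by their labels. The submitters' processing notes name TopHat, Cufflinks and mm9, and per the study's methods reads were trimmed with the FASTX-Toolkit, aligned and assembled, with no versions given in the sources used here. The deposited values are FPKM for each assembled transcript, written within a text field, with no normalization between libraries. Single-end and paired-end reads were used, and which library had which is not given.

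Gene FPKM were compared with limma 3.58.1 (R 4.3.3) on log2(FPKM + 1), in 1 model of 6 groups, for genes with 1 or more FPKM in at least 3 of the 18 libraries, with two-sided tests and Benjamini-Hochberg adjustment at 0.05 over all genes. Files were read with Python 3.11.15, numpy 2.4.6 and pandas 2.3.3. On simulated data for pachytene spermatocytes (14693 genes, 200 changed), 33% of changes of 2 and 77% of changes of 4 on the log2 scale were recovered, with 6.78% false among 118 calls.

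Members and gene lists were chosen with earlier results of these data known. The rule named the testis-specific members, the 3 members of each histone type with the highest mean FPKM, the members called and, from each list, the genes called and the 4 highest. *Hist3h2ba*, *Hist2h2bb*, *Hist2h4*, *Hist2h2be*, *Hist1h2bp* and other members were named after their values were seen. Alternatives were another pseudocount, filter, scaling, quantile normalization, length-weighted FPKM, transcripts with no strand left out, only the libraries compared, a replicate block and each library left out. Same-numbered libraries deviated together (lowest r 0.200 and 0.110) for the fractions of round spermatids and for RNPs of round against pachytene cells. For the pachytene fractions r was 0.387, 0.309 and -0.0738 for replicates 1, 2 and 3. For round against pachytene polysomes it was 0.477, 0.368 and -0.122. Comparisons with elongating libraries gave -0.0253 to 0.0803. The main model held no replicate block. No replicate was identical to another.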

Additional observations from a re-analysis of the deposited data

How the results depend on the processing

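For elongating against round polysomes, 3 members called became 0 with a minimum FPKM of 5, a pseudocount of 0.1 or median-ratio scaling, and 1 with quantile normalization, only the libraries compared, length-weighted FPKM or without both round libraries numbered 2 (an alternative chosen after seeing the data, as was leaving out transcripts under 200 nucleotides). Leaving out each library in turn gave 0 to 3. Between fractions, where 0 were called, the count in pachytene spermatocytes was 3 with length-weighted FPKM and 2 without both round libraries numbered 2 (*Hist1h3f* and *Hist2h2bb*), in round spermatids 1 without those libraries (*Hist1h3f*), and in elongating spermatids 1 with length-weighted FPKM (*Hist1h2bp*) and 1 without those libraries (*Hist3h2bb-ps*). Leaving out each library gave 0 to 1 in all 3 cell types (1 without round RNP replicate 2 in pachytene spermatocytes and in round spermatids, and without round RNP replicate 1, round polysome replicate 3 or elongating polysome replicate 2 in elongating spermatids), and 0 to 1 for the change from round to elongating (1 without elongating polysome replicate 2). The cause was not tested.

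With a replicate block the pachytene count was 1 (*Hist2h2bb*), where replicates 1 and 2 but not 3 deviated together between the fractions. In both comparisons where every number deviated together, no member's call changed.

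Mean FPKM sums moved by more than 1 SD for H2A in pachytene RNPs (155 with median-ratio scaling) and elongating RNPs (102 length-weighted, 210.1 median-ratio), for H2B in pachytene RNPs (739 and 832), elongating RNPs (242 median-ratio) and elongating polysomes (618 and 433), for H3 in round polysomes (1345 length-weighted, 16389 median-ratio and 0.77 without transcripts under 200 nucleotides) and for H4 in round RNPs (294 median-ratio). Only the log2 differences with the smallest adjusted p were followed through the alternatives, and none of them changed sign. They were *Hist1h3f*, *Hist3h2a* and *Hist3h2bb-ps* in elongating against round polysomes, and *Hist2h2bb* and *Hist3h2bb-ps* between the fractions of pachytene and elongating spermatids. The signs of other named members were not followed. The order of the mean H2A sums of the elongating fractions turned, as given above (polysomes higher only when length-weighted). The counted polysome sums there leave out transcripts over *Hist3h2a* and *Hist1h2aa*. Of 144 alternatives for single log2 differences, 82 kept direction and side of the threshold, 57 were weaker and 5 stronger. The number of libraries limits all values, and sequencing depth was not analysed here.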
